A study of Mus musculus with 26 samples.

Results

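The genes described here are the ligands and receptors that guide growing axons, measured in 26 single mouse retinal amacrine cells. They were chosen by symbol: the semaphorins (Sema), plexins (Plxn), neuropilins (Nrp1 and Nrp2), ephrins (Efna and Efnb), Eph receptors (Epha and Ephb), Slits, Robos, netrins (Ntn), Unc5 receptors, Dcc and Neo1. This gave 71 genes, 37 ligands and 34 receptors, of the 18193 genes measured. Another 9 genes whose symbols begin alike but belong to other families, among them Slitrk1 to Slitrk6 and Unc50, were left out. The rule itself uses symbols and no measured value, but it was set with earlier results of these data known.

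Growing axons and dendrites steer by reading signals on other cells. Secreted netrins, Slits and class 3 semaphorins act at a distance, while ephrins and most other semaphorins sit on the cell surface and act on contact. Netrins are read by Dcc, Neo1 and the Unc5 receptors, Slits mainly by Robo1 and Robo2, class 3 semaphorins mostly by neuropilins joined to class A plexins, other semaphorins by plexins directly, and ephrins by Eph receptors. In the retina these systems are known for guiding ganglion cell axons out of the eye and to their targets, and transmembrane semaphorins with plexins for placing the processes of inner retinal neurons in the right sublayer.

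The cells are interneurons of the inner retina that mostly inhibit their targets. They were chosen by hand for GFP driven by the Ndrg4 promoter (pNdrg4) or the Synapsin promoter (pSynapsin), a reporter that electroporation brought into the retina at P0, in vivo or ex vivo, per the series' design text. The youngest were 1 E19 pSynapsin cell and 2 P4 pNdrg4 cells, whose retinas spent 4 days in culture. Of 19 P5 cells, 10 pNdrg4 cells have no culture stated, while 5 pNdrg4 and 4 pSynapsin cells come from a culture of 5 days. The oldest, 2 pNdrg4 and 2 pSynapsin cells of P8, come from a culture of 8 days. The reporters mark sets of amacrine cells and not a known class, the age E19 lies before the stated day of electroporation, and each cell's cDNA went through 35 cycles of PCR from an oligo dT primer. No label names an animal, a retina or a culture, so a group is 1 sample, nothing was tested, and every SD is a spread over cells. Cells are named by their age and label.

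The values are array signals scaled to a trimmed mean of 500 on each array. The detection level was a signal of 1000. Differences were taken on log2 signals with low values raised to 200 (7.64 on the log2 scale), and where a whole group sits on this floor its difference is smaller than the true gap. A signal depends on the probe set, so signals and numbers of cells are not compared between genes as amounts of RNA. The number of arrays limits the precision. Among amacrine markers, the transcription factor gene Pax6 was detected in 26 of 26 cells, Tfap2b in 20 and the vesicular transmitter transporter Slc32a1 in 22. Of markers of other cells, 0 of 5 microglial genes were detected in any cell. Of 8 ganglion cell genes 4 were detected, Nefl in 5 cells, Nefm in 4, Sncg in 2 and Pou4f1 in 1, and Rbpms, Thy1, Slc17a6 and Pou4f3 in 0. Of 6 endothelial genes 2 were detected, Kdr in 5 cells and Pecam1 in 1, and Cdh5, Tek, Cldn5 and Flt1 in 0. Of 7 Muller glia genes 5 were detected, Glul in 18 cells, Car2 in 14, Vim in 11, Rlbp1 in 5 and Slc1a3 in 1, and of 6 bipolar cell genes 4, with Prkca in 6 cells, Otx2 in 3, and Cabp5 and Isl1 in 1 each. Onecut2 was the 1 of 4 horizontal cell genes detected, in 4 cells, and of 4 progenitor genes Top2a was detected in 4, Fgf15 in 2 and Mki67 in 1. Rod genes were detected, 7 of the 8 measured in at least 1 cell, and 7 cells had at least 4 of them: P5 B3, P5 B4, P5 E1, P5 E2, P8 A1, P8 A2 and P8 B4. Gngt1 was the rod gene at 0 cells.

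Of the 71 genes, 44 (62.0%) were detected in at least 1 cell, beside 55.9% of all measured genes. Detection in at least 6 cells was reached by 18 of them (25.4%, beside 28.9% of all genes), and 27 were detected in no cell (38.0%, beside 44.1%). The shares lay near those of all genes. No guidance gene was detected in more than 19 cells, while 3.51% of all genes were detected in 21 to 26. Ligands and receptors were alike in this respect, with 22 of 37 ligands and 22 of 34 receptors detected in at least 1 cell. Genes with several probe sets on the array were detected more often, 34 of 48 (70.8%, beside 72.6% of all such genes), than the 23 with 1 probe set, of which 10 were (43.5%, beside 39.6%).

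**Figure D1:**
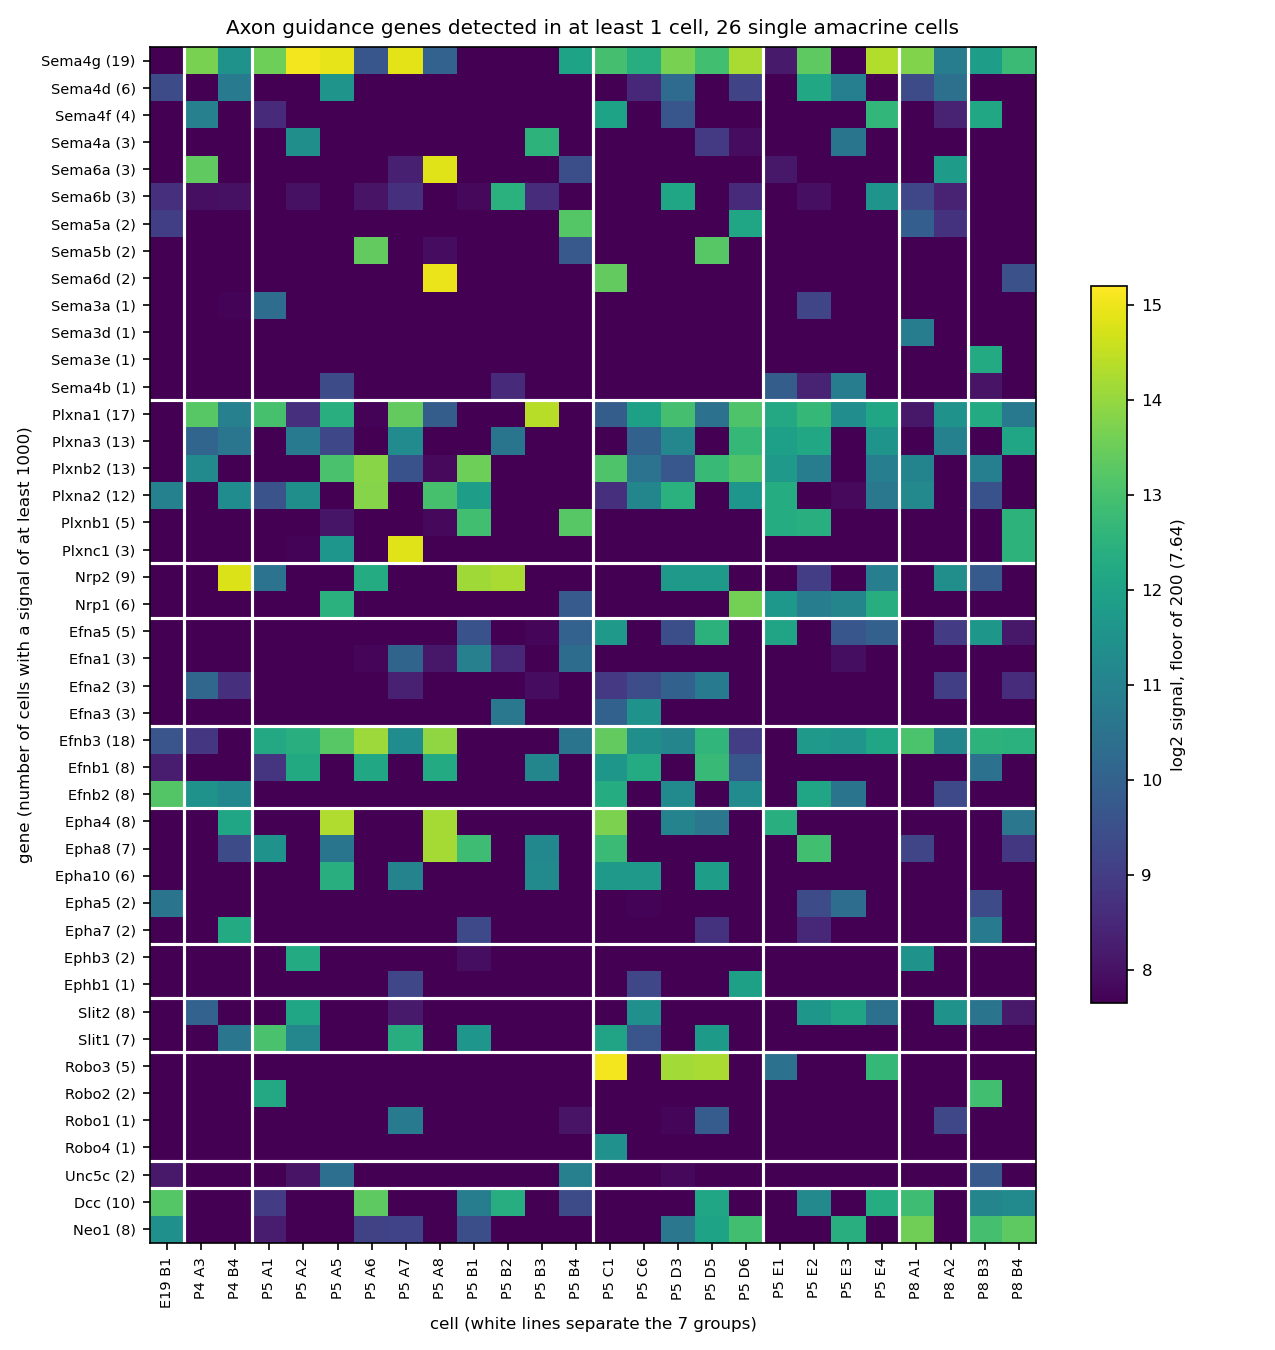
Log2 signals, with a floor of 7.64, of the 44 guidance genes detected in at least 1 cell (rows, with the number of cells at a signal of at least 1000) in the 26 cells (columns), with white lines between gene families and between the 7 groups. Sema4g, Efnb3 and Plxna1 are bright in 19, 18 and 17 cells, and most other rows are bright in a few scattered cells.

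Every cell had a guidance gene, and no cell had the same set as another. A cell held a median of 9 of the 71 genes, with a range of 5 to 15, made up of a median of 4.5 ligands and 5 receptors. The 26 cells carried 26 distinct sets. Of the 325 pairs of cells, 14 shared no guidance gene, the median pair shared 3, and the most any pair shared was 9. The median Jaccard index, the shared genes over all genes of the pair, was 0.20 and the highest was 0.533.

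The number of guidance genes differed between groups, as did the number of all genes found in a cell. Cultured P5 pNdrg4 cells held a median of 13 (range 10 to 15) with a median of 3256 genes detected in all, and P5 pNdrg4 cells with no culture stated held 8 (range 5 to 11) with 2361.5 genes. As a share of the genes detected, guidance genes made up a median of 0.400% in the cultured cells and 0.332% in the others. P5 pSynapsin cells held 11 (range 9 to 13) with 3472 genes, a share of 0.314%. The P8 pNdrg4 cells held 8 each, the P8 pSynapsin cells 13 and 9, the P4 cells 9 and 10, and the E19 cell 5. Over the 26 cells, the number of guidance genes and the number of all genes detected had a Spearman correlation of 0.484 and a Pearson correlation of 0.534, as a description, since both counts come from the same array.

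**Figure D2:**
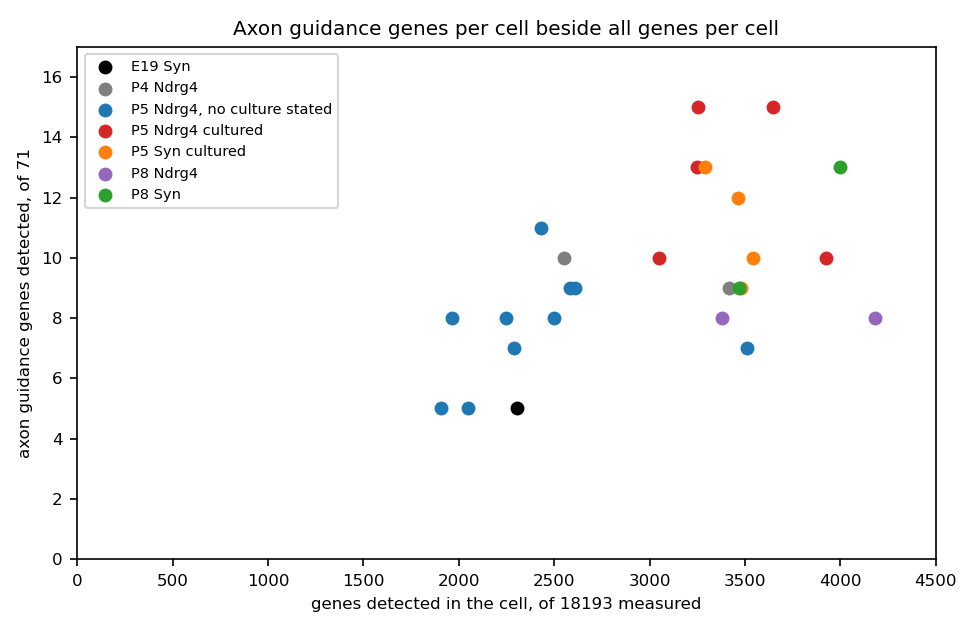
Number of the 71 guidance genes detected in each cell (y axis) against the number of all 18193 measured genes detected in it (x axis), 1 point per cell and 1 colour per group. Cultured P5 pNdrg4 cells lie at 10 to 15 guidance genes and the P5 cells with no culture stated at 5 to 11, and the latter also have fewer genes in all.

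Among semaphorins, 13 of 20 were detected, and a membrane-bound member of class 4 led by number of cells. Sema4g, known as a ligand of Plxnb2, was detected in 19 of 26 cells (73.1%, exact Clopper-Pearson 95% interval 52.2 to 88.4, counting error only). Its signal was 13106 and 2935 in the P4 cells, and 8075, 5251, 13229, 7637 and 19267 in the cultured P5 pNdrg4 cells C1, C6, D3, D5 and D6. Among P5 cells with no culture stated it ran from 4.5 to 34068 with a median of 2592, and 6 of 10 were above the detection level. All 5 cultured P5 pNdrg4 cells and all 4 P8 cells were therefore high, while the E19 cell was low at 9.6. In the P5 pSynapsin cells the signal was 293 in E1, 10265 in E2, 76.6 in E3 and 20621 in E4, and in the P8 cells it was 13983, 1808, 3785 and 7142. The array holds 1 probe set for Sema4g.

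Sema4d, a ligand of Plxnb1, was detected in 6 cells. Its signal was 1701 in P4 B4, 2991 in P5 A5, 1236 in P5 D3, 4491 in P5 E2, 1924 in P5 E3 and 1383 in P8 A2, and between 3.5 and 673 in the other 20 cells. Each of the 6 cells had Plxna1, and 1 other Sema4d probe set of 2 was detected, in 1 cell. Sema4f was detected in 4 cells, P4 A3 (1941), P5 C1 (4163), P5 E4 (6434) and P8 B3 (4485). Sema4a was detected in P5 A2 (2712), P5 B3 (5911) and P5 E3 (1530), and Sema4b in P5 E3 (1802). Apart from Sema4g, each class 4 gene was thus found in few cells, and P5 E3 had 3 of them, Sema4a, Sema4b and Sema4d.

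The class 5 and class 6 semaphorins are transmembrane proteins that bind class A plexins, and all except Sema6c were detected in 2 or 3 cells each. Sema6a was detected in P4 A3 (10472), P5 A8 (29147) and P8 A2 (3514). Sema6b was detected in P5 B2 (5694), P5 D3 (4360) and P5 E4 (3025), and Sema6d in P5 A8 (32353) and P5 C1 (10650). P5 A8 was the cell with both Sema6a and Sema6d. Sema5a was detected in P5 B4 (9367) and P5 D6 (4461), and Sema5b in P5 A6 (10804) and P5 D5 (9615), with no cell having both. Where these genes were detected, the signal of the probe set used lay well above the detection level, between 3025 and 32353. Other probe sets of Sema6d and Sema5b were detected in no cell, with highest signals of 268.6 and 395.6. Of those of Sema6a, 1 was detected in 2 cells, 1 of them shared, and 1 in 0. Of those of Sema5a, 1 was detected in 1 cell, a shared one, and the rest in none. Sema6b has 1 probe set.

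The secreted class 3 semaphorins were nearly absent from the detected genes. Sema3a was detected in P5 A1 (1312), Sema3d in P8 A1 (1832) and Sema3e in P8 B3 (4910). Sema3b, Sema3c, Sema3f and Sema3g were detected in no cell, and neither were Sema4c, Sema6c and Sema7a. The highest signal among these 7 was 741.1, for Sema6c in P5 A2.

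Plexins, the semaphorin receptors, were detected in every cell. Each cell had between 1 and 5 of the 9 genes, with a median of 2, and 24 of 26 cells had at least 1 of the class A plexins Plxna1, Plxna2 and Plxna3. Plxna1 was detected in 17 cells, in all 4 P5 pSynapsin cells (4699, 6609, 2581 and 4411), in both P4 cells (9728 and 1960) and in 4 of 5 cultured P5 pNdrg4 cells (3893, 8057, 1439 and 8942, with 930 in C1). Among P5 cells with no culture stated it was detected in 4 of 10, with a range of 21.5 to 21392 and a median of 667. Plxna1 was thus found in most cultured cells and fewer of the others. The P8 cells had 280 and 2960 with pNdrg4 and 4867 and 1663 with pSynapsin. Its other probe set reached at most 214.2.

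Plxna3 was detected in 13 cells, 3 of 10 with no culture stated (range 21.8 to 2523), 3 of 5 cultured P5 pNdrg4 cells (1012, 2243 and 6524), 3 of 4 P5 pSynapsin cells (3810, 4567 and 2993), both P4 cells (1102 and 1573), P8 A2 (1978) and P8 B4 (4372). Many of these signals lay near the detection level, and its other probe set was detected in 3 of these cells. Plxna2, a receptor for class 6 semaphorins, was detected in 12 cells. They were 4 of 10 with no culture stated (range 6.7 to 14392), 3 of 5 cultured P5 pNdrg4 cells (2195, 5687 and 3103), P5 E1 (5077), P5 E4 (1642), P8 A1 (2367), P4 B4 (2542) and the E19 cell (2005). The 3 other Plxna2 probe sets were detected in 2, 3 and 5 cells. All of Plxna1, Plxna2 and Plxna3 were present in 6 cells. Plxna4 was detected in no cell, with a highest signal of 211.4.

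Plxnb2, a receptor for class 4 semaphorins, was detected in 13 cells. Its signal was 8970, 1474, 827, 6897 and 8829 in the cultured P5 pNdrg4 cells and 3395, 1860, 15.1 and 1898 in the P5 pSynapsin cells. Among P5 cells with no culture stated it ran from 10.5 to 14804 with a median of 159.3, and 3 of 10 were above the detection level. The remaining detections were P4 A3 (2401), P8 A1 (2106) and P8 B3 (1919). Plxnb2 and its ligand Sema4g were detected together in 10 cells. Plxnb1 was detected in 5 cells, P5 B1 (7734), P5 B4 (9751), P5 E1 (5093), P5 E2 (5501) and P8 B4 (5921), and at most 267 elsewhere. Another Plxnb1 probe set was also detected in 5 cells, of which 2 were the same. Plxnc1, a receptor for Sema7a, was detected in P5 A5 (3163), P5 A7 (29259) and P8 B4 (5915), and its 5 other probe sets in no cell. Plxnb3 and Plxnd1 were detected in no cell.

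The neuropilins are the binding subunits for class 3 semaphorins. Of the 26 cells, 14 had Nrp1 or Nrp2, and 1 of them, P5 E4, had both. Nrp2 was detected in 9 cells, P4 B4 (28769), P5 A1 (1463), P5 A6 (5050), P5 B1 (17955), P5 B2 (19541), P5 D3 (3303), P5 D5 (3323), P5 E4 (1866) and P8 A2 (2675). Its 3 other probe sets were detected in 6, 3 and 2 cells, of which 4, 1 and 2 were among the 9. Nrp1 was detected in all 4 P5 pSynapsin cells, with signals of 3293, 1822, 2180 and 5249 in E1 to E4, in P5 A5 (5712) and in P5 D6 (12541). In the other 20 cells its signal was at most 907. All 14 cells with a neuropilin also had a class A plexin, as did 24 of all 26 cells.

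Nrp1 read differently by probe set. Its other probe sets were detected in 6, 5 and 1 cells, of which 4, 3 and 0 were among the 6. In the P5 pSynapsin cells they were detected in 2, 1 and 0 of 4, and in the cultured P5 pNdrg4 cells in 2, 2 and 0 of 5, so they do not show the presence in all pSynapsin cells that the probe set used here shows.

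Ephrin-B genes, which code for transmembrane ephrins that can also signal into the cell that carries them, were detected in 23 of 26 cells. Efnb3 was detected in 18 cells (69.2%, interval 48.2 to 85.7). Its signal was 8476 and 2233 in the P8 pNdrg4 cells, 5865 and 5642 in the P8 pSynapsin cells, 112, 3347, 3064 and 4417 in the P5 pSynapsin cells, and 10632, 2715, 2188, 6225 and 521 in the cultured P5 pNdrg4 cells. Among P5 cells with no culture stated it ran from 4.6 to 17380 with a median of 3607, and 7 of 10 were above the detection level. The P4 cells (459 and 167) and the E19 cell (793) were below it. Efnb3 was thus found in all 4 P8 cells and in 0 of the 3 youngest, and the array holds 1 probe set for it. In all, 3382 to 4180 genes were detected in the P8 cells, 2552 and 3418 in the P4 cells and 2306 in the E19 cell. The part of this depth in the Efnb3 pattern was not tested, and the share of all genes with such a pattern was not taken.

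Efnb1 and Efnb2 were each detected in 8 cells and met in 1, P5 C1. Efnb1 was detected in P5 A2 (4799), P5 A6 (4493), P5 A8 (4942), P5 B3 (2202), P5 C1 (3186), P5 C6 (4982), P5 D5 (7031) and P8 B3 (1429), and 7 of these 8 cells also had Efnb3. The 4 P5 pSynapsin cells had Efnb1 signals of 45.3, 15.5, 155 and 90.7. Efnb2 was detected in the E19 cell (9335), in P4 A3 (2966), P4 B4 (2288), P5 C1 (5173), P5 D3 (2443), P5 D6 (2520), P5 E2 (4421) and P5 E3 (1486). In the 10 P5 cells with no culture stated it was at most 135, and in the 4 P8 cells at most 636. Efnb2 was therefore found in all 3 cells of the youngest ages, in 5 of 9 cultured P5 cells and in none of the P5 cells with no culture stated. Of its 3 other probe sets, 1 was detected in 5 cells, 4 of them shared, and that probe set was also at 0 of 10 cells with no culture stated. It was, however, at 0 of 2 P4 cells and was detected in 1 P8 pSynapsin cell, so it does not show the same pattern over age, and the 2 others were at 0 cells.

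Ephrin-A genes, which code for ephrins held by a lipid anchor, were detected in 11 cells, each in few. Efna5 was detected in P5 B4 (1040), P5 C1 (3367), P5 D5 (5732), P5 E1 (4271) and P8 B3 (3212), with 999 in P5 E4 just below the detection level. Efna1 was detected in P5 A7 (1085), P5 B1 (1942) and P5 B4 (1262), Efna2 in P4 A3 (1135), P5 D3 (1017) and P5 D5 (1764), and Efna3 in P5 B2 (1632), P5 C1 (1022) and P5 C6 (2971). Many of these signals lay close to 1000. Efna4 was detected in no cell.

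Among EphA receptors, 5 of 9 genes were detected, and 17 cells had at least 1. Epha4, a receptor that binds ephrins of both classes, was detected in P4 B4 (4399), P5 A5 (20346), P5 A8 (18507), P5 C1 (13403), P5 D3 (2061), P5 D5 (1602), P5 E1 (5418) and P8 B4 (1597). In the other 18 cells its signal was at most 83.5, so no cell lay near the detection level from below. Of these 8 cells, 7 also had an ephrin-B gene. Its 4 other probe sets were detected in at most 1 cell each.

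Epha8 was detected in 7 cells, 5 of them P5 cells with no culture stated, namely A1 (2880), A5 (1535), A8 (18652), B1 (7404) and B3 (2290). The others were P5 C1 (7071) and P5 E2 (7644). Epha10 was detected in 6 cells, P5 A5 (5438), P5 A7 (2067), P5 B3 (2405), P5 C1 (3343), P5 C6 (3318) and P5 D5 (3806), all of them P5 pNdrg4 cells, and at most 141 elsewhere. Epha8 and Epha10 each have 1 probe set. Epha5 was detected in the E19 cell (1511) and P5 E3 (1298), and Epha7 in P4 B4 (4917) and P8 B3 (1745). Other probe sets of Epha5 were detected in 0 or 1 cells and those of Epha7 in 1 or 2, none of them among these. Epha1, Epha2, Epha3 and Epha6 were detected in no cell.

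EphB receptors, the main partners of ephrin-B proteins, were read by 1 probe set each. Ephb3 was detected in P5 A2 (4883) and P8 A1 (2945) and Ephb1 in P5 D6 (3933), so 3 of 26 cells had an EphB gene. Ephb4 and Ephb6 were detected in no cell, with highest signals of 322.6 and 182.0. Other EphB genes, among them Ephb2, were not analysed here.

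The secreted repellents Slit1 and Slit2 were detected in 14 cells between them, and both in 1, P5 A2. Slit2 was detected in P4 A3 (1045), P5 A2 (4420), P5 C6 (2753), P5 E2 (3216), P5 E3 (4274), P5 E4 (1387), P8 A2 (2937) and P8 B3 (1514). Slit1 was detected in P4 B4 (1573), P5 A1 (8365), P5 A2 (2258), P5 A7 (5251), P5 B1 (3118), P5 C1 (4244) and P5 D5 (3489). Slit1 was thus detected in 7 of 19 pNdrg4 cells and 0 of 7 pSynapsin cells, with signals of at most 113 in the latter, and Slit2 in 4 of 19 and 4 of 7. The other probe set of Slit1 was at 0 cells. A second Slit2 probe set was detected in 6 cells, 5 of them shared, and another in none. Slit3 was detected in no cell.

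The Robo genes were each found in few cells. Robo3, a divergent member of the family that binds Slits weakly and is known for letting commissural axons cross the midline, had signals of 33992 in P5 C1, 18196 in P5 D3, 19196 in P5 D5, 6603 in P5 E4 and 1399 in P5 E1. In the other 21 cells its signal was between 11.2 and 188, below the floor of 200. All 5 positive cells were cultured P5 cells. The other Robo3 probe set reached at most 250.3. Robo2 was detected in P5 A1 (4683) and P8 B3 (7668) and Robo1 in P5 A7 (1752). Robo4, known from endothelial cells, was detected in P5 C1 (2830). The endothelial receptor gene Kdr was also detected in P5 C1 (3708), as it was in P5 D3 (2932), P5 D5 (2648), P5 B4 (9987) and P8 A2 (1291), while Pecam1 was detected in P4 A3 (1572) and Cdh5, Tek, Cldn5 and Flt1 in 0 of 26 cells.

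No netrin was detected in any cell. The secreted netrins Ntn1, Ntn3, Ntn4 and Ntn5 and the membrane-anchored netrin-G genes Ntng1 and Ntng2, which do not bind Dcc, had highest signals between 117.3 (Ntn3) and 543.5 (Ntn5). A count of 0 of 26 cells allows a share of up to 13.2% (upper bound of the exact 95% interval, counting error only). For Ntng1, 2 other probe sets each reached the detection level in 1 cell.

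Netrin receptors were present all the same. Dcc was detected in 10 cells, the E19 cell (9423), P5 A6 (10222), P5 B1 (1806), P5 B2 (5263), P5 D5 (4392), P5 E2 (2343), P5 E4 (5152), P8 A1 (7351), P8 B3 (2187) and P8 B4 (2449). In 14 of the other 16 cells its signal was below 200. Its 2 other probe sets were detected in 0 and 1 cells. Neo1, a receptor for netrins and for the RGM proteins, was detected in 8 cells, the E19 cell (2764), P5 D3 (1607), P5 D5 (4157), P5 D6 (7788), P5 E3 (5309), P8 A1 (12025), P8 B3 (8110) and P8 B4 (10241). All 10 P5 cells with no culture stated were below the detection level, with a range of 11.9 to 701 and a median of 62.3. Another Neo1 probe set was detected in 2 of 5 cultured P5 pNdrg4 cells, 1 of 4 P5 pSynapsin cells, 1 of 2 and 2 of 2 P8 cells, and in 0 of the 10.

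Dcc or Neo1 was detected in 13 cells and both in 5, namely the E19 cell, P5 D5, P8 A1, P8 B3 and P8 B4. The repulsive netrin receptor Unc5c was detected in P5 A5 (1360) and P5 B4 (1959), and Unc5a, Unc5b and Unc5d in no cell.

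Ligand and receptor of a family met in the same cell to very different degrees. A semaphorin of class 4 to 7 and a plexin were both detected in 23 cells, and every one of the 26 had a plexin. An ephrin-A and an EphA gene were both detected in 8 cells (ligand in 11, receptor in 17), and a Slit and a Robo in 6 (ligand in 14, receptor in 8). An ephrin-B and an EphB gene were both detected in 3 cells, all those with an EphB gene, beside 23 with an ephrin-B. This count rests on 4 EphB genes, Ephb1, Ephb3, Ephb4 and Ephb6, and Ephb2 was not analysed. Counting EphA and EphB together, 18 cells had an ephrin-B gene and an Eph receptor. A class 3 semaphorin and a neuropilin met in 1 cell, P5 A1 (ligand in 3, receptor in 14), and a netrin with Dcc, Neo1 or an Unc5 receptor in 0 (receptor in 15). These counts depend on the probe sets of each gene, and of the 8 cells with a Robo gene 5 had Robo3. Without the 7 cells with at least 4 rod genes, the counts were 17, 7, 6, 2, 1 and 0, over 19 cells.

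**Figure D3:**
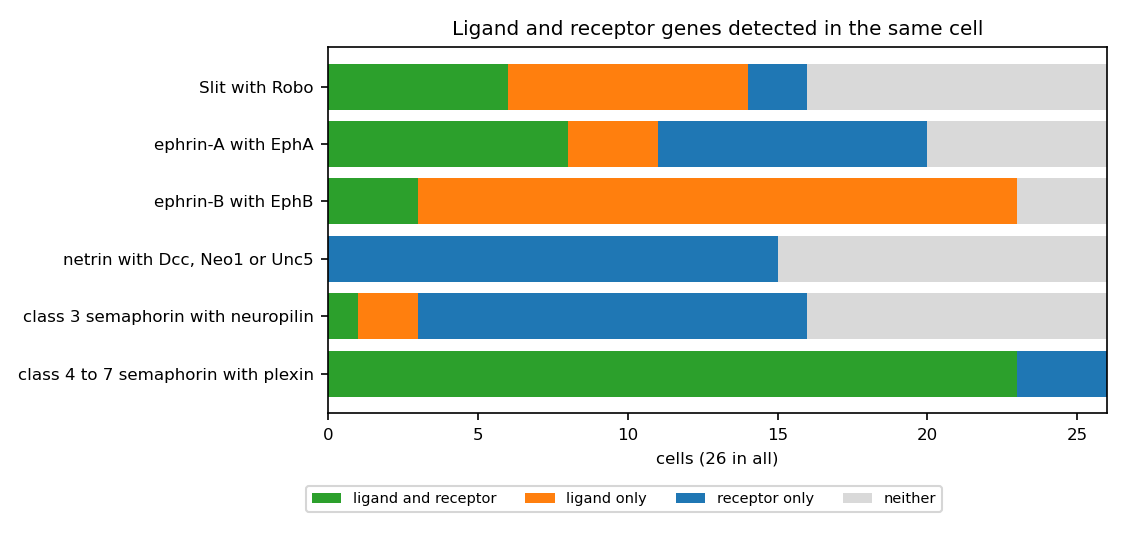
Number of the 26 cells in which a ligand and a receptor of a family were both detected (green), only the ligand (orange), only the receptor (blue) or neither (grey), for 6 ligand and receptor families. Class 4 to 7 semaphorins and plexins met in 23 cells, and netrin receptors were without a netrin in 15. Ephrin-B genes were without any of the 4 EphB genes analysed, which leave out Ephb2, in 20.

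Among the 18 genes detected in at least 6 cells, detection was compared pair by pair. Over 153 pairs the phi coefficient, a correlation of presence and absence over 26 cells, had a median of 0.0289. The highest was 0.535 for Efnb3 and Sema4g, which shared 16 cells. The lowest was -0.444 for Epha4 and Slit2, each in 8 cells and with no cell in common. Epha8 and Neo1 also shared no cell (phi -0.405). These values are a description over cells of 7 groups, which differ in depth of detection.

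Detection was also set beside the transmitter markers of the cells. Of the 26 cells, 13 had the glycine transporter gene Slc6a9 and no Gad1, 10 had Gad1, which makes GABA, and no Slc6a9, 1 had both and 2 had neither. These 13 cells held 57.1% of all detections of all genes. For the 18 guidance genes in at least 6 cells, the share of their cells among the 13 had a median of 54.2%, from 2 of 6 cells for Epha10 to 6 of 8 for Neo1, near the share over all genes. Robo3, Plxnb1 and Efna5, the 3 guidance genes detected in 5 cells, had all 5 among the 13, as did 7.1% of the 695 measured genes detected in 5 cells, a pattern picked out after its values were seen. Slc6a9 itself was detected in all 8 P5 pSynapsin and P8 cells and in 0 of the 3 E19 and P4 cells. In these groups marker and group cannot be told apart. Among P5 pNdrg4 cells Slc6a9 varied within a group, in 3 of 10 with no culture stated and 3 of 5 cultured.

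Across all genes, those whose detection was most like that of a guidance gene were named by phi over 26 cells. For Neo1 they were Acap2 (phi 0.843, 8 shared cells), Trio (0.741), an exchange factor gene that is on the list of effectors and partners used here, and Rnf168 (0.732). For Efnb3 they were Cnrip1 (0.822, 18 shared cells), Arpc2 (0.723) and Iars (0.672), and for Sema4g Arpc2 (0.805, 18 shared cells), Taldo1 (0.768) and 2610005L07Rik (0.723). For Slit2 they were Vav2 (0.822, 6 shared cells), Rpn2 (0.741) and Nap1l2 (0.732), and for Efnb2 Dhrs13 (0.822), Phf21b (0.672) and Nsd2 (0.672).

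Among the plexins, the closest genes were Praf2 (0.754), Ank2 (0.686) and Itm2b (0.671) for Plxna1, Phf8 (0.691), Uchl5 (0.613) and Prkx (0.553) for Plxna2, Nudt16l1 (0.701), Ttc9 (0.701) and Triap1 (0.667) for Plxna3, and Larp1 (0.701), Gsto1 (0.692) and Cert1 (0.667) for Plxnb2. For the neuropilins they were Zbed4 (0.779), Sgk1 (0.659) and Polr3a (0.659) for Nrp1 and Nsdhl (0.671), Phyh (0.588) and E230016M11Rik (0.586) for Nrp2. Dcc had Nfasc (0.672), Abcb10 (0.617) and Zkscan3 (0.575), and Slit1 had Rora (0.703), Ndc1 (0.697) and Spock1 (0.609). Efnb1 had Mfsd12 (0.732), Atg12 (0.723) and Cers4 (0.640), and Sema4d had Pcsk7 (0.697), Zfp846 (0.659) and Tef (0.659). Among Eph receptors, Epha4 had Mrpl44 (0.741), Prmt5 (0.732) and Rfx3 (0.732), Epha8 had Kank3, Crat and Gm4924 (0.595 each), and Epha10 had Adck5, Ciapin1 and Vps26c (0.697 each). Each list is the top 3 of 7377 genes compared, chosen for their phi, and several are tied with further genes.

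A further list held intracellular effectors of these receptors, adhesion molecules and other ligands and surface partners. Of its 61 genes outside the rule, 58 were measured. Detection in at least 1 cell was reached by 52 (89.7%, beside 55.9% of all genes) and in at least 6 by 35 (60.3%, beside 28.9%). The list was chosen gene by gene with earlier results of these data known, so these higher shares describe the list. Cfl1, the actin-severing protein cofilin, and Crmp1, a mediator of semaphorin signals, were detected in all 26 cells, and Dpysl2 (also known as Crmp2) and Srgap3, a partner of Robo receptors, in 25. The small GTPases Rac1 and Cdc42 were detected in 22 cells each. Rgmb, a ligand of Neo1, was detected in 12 cells and Rgma in 1.

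Culture was described by setting the 5 cultured P5 pNdrg4 cells beside the 10 pNdrg4 cells of that age for which none is stated. In the cultured cells 3 guidance genes were higher by at least 2 log2 (4.23%, beside 3.47% of all measured genes) and 0 were lower by as much (beside 0.698%), shares near the background. They were Robo3, Efnb2 and Plxnb2, and in each the cells of both groups overlapped, as they did for all 71 genes (of all measured genes, 0.0989% were higher and 0.0605% lower without overlap). Robo3 was higher by 4.10, with a mean log2 signal of 11.74 ± 3.76 (SD, n = 5 cells) against the floor of 7.64 in all 10 others, and 3 of 5 cells had it. Efnb2 was higher by 2.39 (10.04 ± 2.23 against the floor), with 3 of 5 cells against 0 of 10, and by 0.89 with the median over the probe sets of the gene. Plxnb2 was higher by 2.24 (11.84 ± 1.62 against 9.60 ± 2.74), with 4 of 5 cells against 3 of 10. Without C1 the Efnb2 and Plxnb2 differences were 1.82 and 1.92, and without D6 that of Plxnb2 was 1.92.

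Short of 2 log2, Neo1 was higher by 1.99 (3 of 5 cells against 0 of 10) and Sema4g by 1.93 (5 of 5 against 6 of 10). The members with the lowest differences were Epha8 (-1.18), Plxnb1 (-1.15) and Plxnc1 (-1.12). Over the 37 guidance genes detected in at least 2 cells the median difference was 0.41, beside 0.31 over all 8570 such genes. The cultured cells also had more genes detected in all, as given above. They differed too in Xist, an RNA of female cells, which was detected in 5 of 5 cultured cells and 0 of 10 others. Rod genes were detected in both groups, at a median of 1 per cell in the cultured cells and 1.5 in the others, with summed log2 levels of the 8 genes of 61.2 to 66.0 and 61.2 to 89.6. Muller glia genes were detected at a median of 1 per cell in the cultured cells (2 of 7 detected, summed log2 54.7 to 62.1) and 2 in the others (5 of 7, 53.5 to 76.8), with Aqp4 and Apoe at 0 in both. Of the ganglion cell genes, Nefl and Nefm were detected in 2 of 5 cultured cells each and in 0 of 10 others. Pou4f1 and Sncg went the other way, in 0 of 5 cultured cells and 1 of 10 others each. Summed log2 levels over the 8 genes were 61.2 to 71.1 in the cultured cells and 61.2 to 67.7 in the others. Kdr was detected in 3 of 5 and 1 of 10. Gad1 was detected in 1 of 5 cultured cells and 7 of 10 others, and Slc6a9 in 3 of 5 and 3 of 10. The 3 cultured cells with Robo3, C1, D3 and D5, were the 3 with Slc6a9. The part of sex, of depth, of the mix of Gad1 and Slc6a9 cells or of RNA of other cells in these differences was not tested. Without P5 B3 and P5 B4, the cells with at least 4 rod genes, Robo3 and Efnb2 were higher by the same 4.10 and 2.39 and Plxnb2 by 1.75. Leaving out C6 raised the number of genes higher by at least 2 log2 to 6, leaving out A7 raised it to 5, and leaving out C1 gave 1 gene lower by as much.

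Of the listed effectors and partners, 2 of 58 (3.45%, beside 3.47% of all genes) were higher by at least 2 log2 in the cultured cells, the adaptor Grb2 (2.57) and the adhesion molecule Nrcam (2.17), and 2 (3.45%, beside 0.698%) were lower, the kinase gene Gsk3b (-2.32) and Srgap1 (-2.15), a partner of Robo receptors.

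The reporters were compared at P5 between 4 pSynapsin and 5 pNdrg4 cells, both cultured for 5 days. This comparison shares its pNdrg4 cells with the culture and age comparisons. A gene high in these 5 cells thus leans higher for culture, and lower for the reporter and for age. In pSynapsin cells 3 guidance genes were higher by at least 2 log2 (4.23%, beside 2.84% of all genes) and 5 were lower (7.04%, beside 2%). The groups overlapped for all 71 genes, while 0.5% of all genes were higher and 0.247% lower without overlap. Rod genes were detected at a median of 3 per cell (1 to 6) in the pSynapsin cells, with summed log2 levels of 66.3 to 94.1, and at a median of 1 (0 to 1) in the pNdrg4 cells, with 61.2 to 66.0, and Xist in 1 of 4 and 5 of 5 cells. Muller glia genes had summed log2 levels of 54.8 to 74.8 (4 of 7 detected) in the pSynapsin cells and 54.7 to 62.1 (2 of 7) in the pNdrg4 cells. The part of any of these in the differences below was not tested.

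The 3 genes higher in pSynapsin cells were Nrp1, Plxnb1 and Slit2. Nrp1 was higher by 2.65 (11.49 ± 0.68, n = 4 cells, against 8.84 ± 2.67, n = 5 cells), with 4 of 4 cells against 1 of 5. That 1 cell, P5 D6, had the highest Nrp1 signal of all, and with the median over the probe sets of the gene the difference was 0.51. Plxnb1 was higher by 2.36 (10.01 ± 2.73 against the floor), with 2 of 4 cells against 0 of 5, and both its cells, E1 and E2, had at least 4 rod genes. Without these cells the Plxnb1 difference was 0.00, since the other 2 were at the floor, and it was 1.59 without E1 alone and 1.56 without E2 alone. Slit2 was higher by 2.05 (10.45 ± 1.99 against 8.40 ± 1.69), with 3 of 4 cells against 1 of 5, and by 0.35 with the median over its probe sets. The Slit2 difference fell short of 2 log2 without any 1 of C1, D3, D5, D6, E2 and E3, and was lowest, at 1.51, without E3.

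The 5 genes lower in pSynapsin cells were Efnb1, Epha10, Sema4g, Robo3 and Slit1. Efnb1 differed by -3.16, at the floor in all 4 pSynapsin cells against 10.80 ± 2.12 in pNdrg4 cells, of which 3 of 5 had it, and by -1.99 with the median over its probe sets. Epha10 (-2.47, 3 of 5 pNdrg4 cells) and Slit1 (-2.11, 2 of 5) were also at the floor in all 4 pSynapsin cells, and the Slit1 difference was -1.58 with the median over its probe sets. Sema4g differed by -2.36 (10.87 ± 3.44 against 13.23 ± 0.73), with 2 of 4 cells against 5 of 5, and by -1.47 without E1 and -1.28 without E3. Robo3 differed by -2.14 (9.61 ± 2.44 against 11.74 ± 3.76), with 2 of 4 cells against 3 of 5, and by -1.31 without C1. It was short of 2 log2 also without D3 (-1.54), D5 (-1.52), E2 (-1.48) or E3 (-1.48), and Slit1 was so without C1 (-1.53) or D5 (-1.60). Leaving out C1 or D5 lowered the number of genes lower by at least 2 log2 to 3, and leaving out E2 lowered the number of higher genes to 1.

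**Figure D4:**
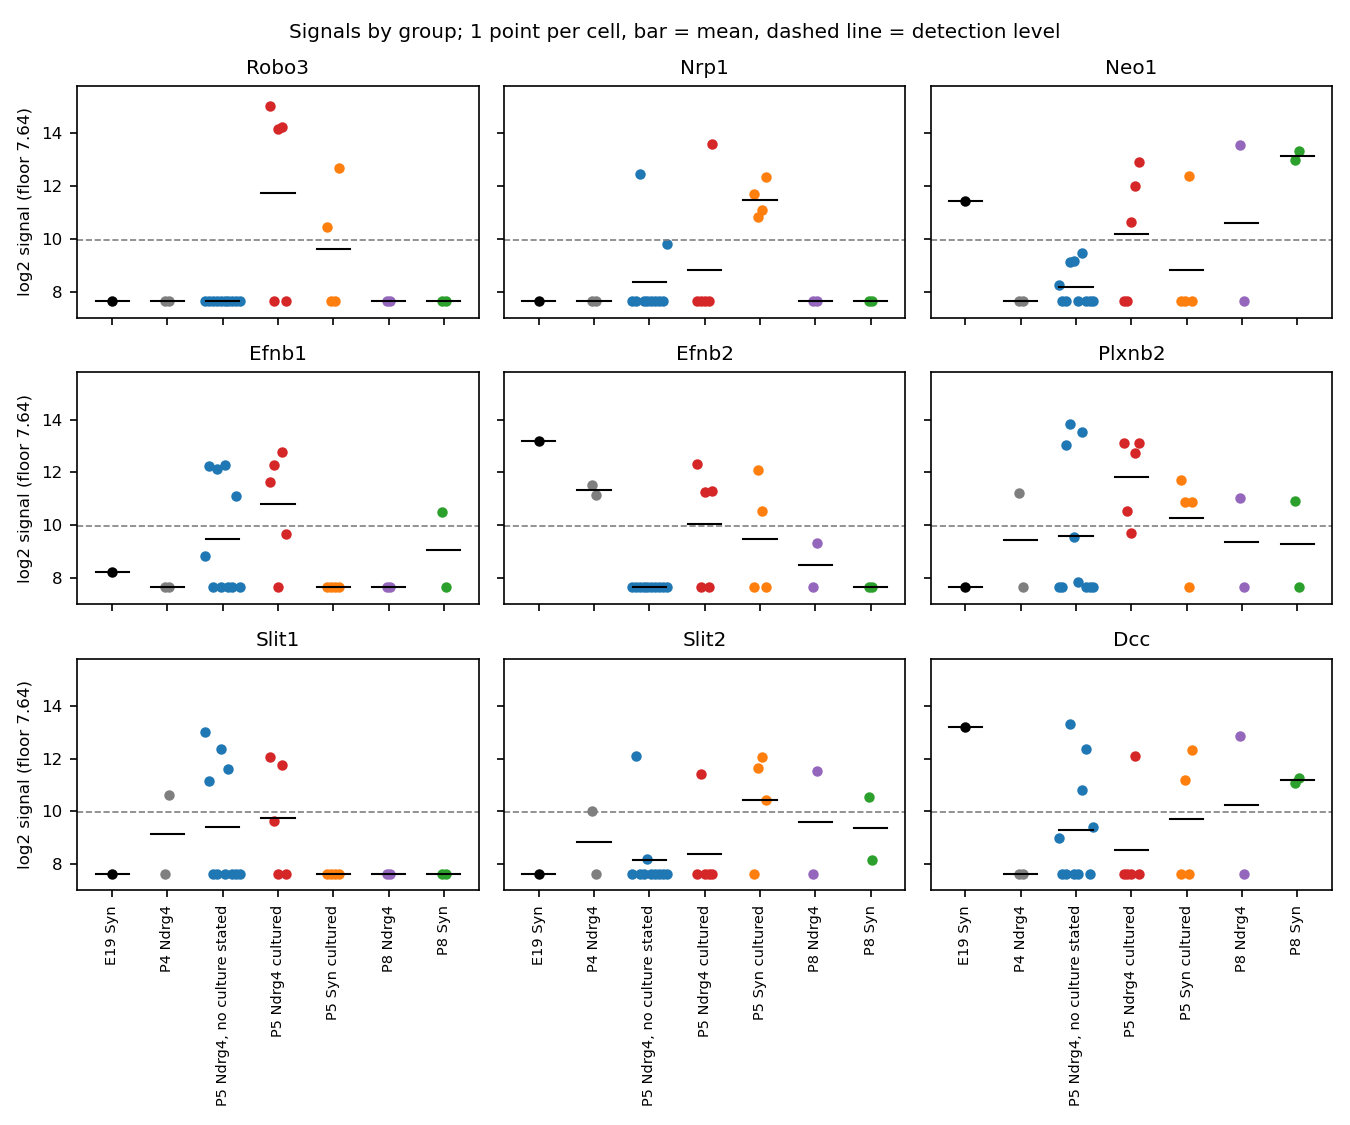
Log2 signals (floor 7.64) of 9 guidance genes in the 7 groups, 1 point per cell, with a bar at the mean of each group and a dashed line at the detection level. Robo3 lies above the line in 5 of 9 cultured P5 cells and in no other cell, Nrp1 in all 4 P5 pSynapsin cells, and Efnb2 in none of the P5 cells with no culture stated.

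At P8 the same comparison rested on 2 against 2 cells, and both pNdrg4 cells had Xist while neither pSynapsin cell did, its part not tested. In pSynapsin cells 5 genes were higher by at least 2 log2 (7.04%, beside 5.45% of all genes): Robo2 (2.63), Neo1 (2.55), Plxnb1 (2.44), Plxnc1 (2.44) and Sema3e (2.31). Apart from Neo1, each of them was detected in 1 of the 2 pSynapsin cells and in neither pNdrg4 cell. Lower by as much were Sema4d (-2.27) and Sema6a (-2.07), 2 genes (2.82%, beside 4.91%). For 4 genes, Sema4d, Sema5a, Sema6b and Sema6c, both pSynapsin cells lay below both pNdrg4 cells (beside 5.18% of all genes), and of these Sema4d alone reached the detection level, in P8 A2. For 0 genes did both pSynapsin cells lie above both pNdrg4 cells (beside 5.35%). Of the genes past 2 log2 at P5, Plxnb1 was the one past it at P8 in the same direction, through cell P8 B4, which had 7 rod genes.

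Of the 58 listed effectors and partners, 2 (3.45%, beside 2.84% of all genes) were higher by at least 2 log2 in P5 pSynapsin cells, Dpysl4 (2.22) and Limk2 (2.17). Another 3 (5.17%, beside 2%) were lower, Trio (-2.50), an exchange factor downstream of Dcc, Grb2 (-2.11) and Rnd3 (-2.10).

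Age was described as P8 minus P5 among cultured cells, within each reporter and then averaged. The P8 cells come from a culture of 8 days and the P5 cells from 5 days. Age and days in culture therefore cannot be told apart. On average 1 guidance gene was higher by at least 2 log2 (1.41%, beside 1.8% of all genes), Neo1, and 2 were lower (2.82%, beside 0.786%), Robo3 and Nrp1. The median number of genes detected was 3781 and 3732.5 in the P8 pNdrg4 and pSynapsin cells, against 3256 and 3472 at P5, and 3 of 4 P8 cells had at least 4 rod genes against 2 of 9 P5 cells, with summed log2 rod levels of 85.1 to 92.5 in the pNdrg4 and 67.7 to 103.2 in the pSynapsin cells. Muller glia genes had summed log2 levels of 63.6 to 66.8 in the P8 pNdrg4 cells and 53.7 to 68.2 in the P8 pSynapsin cells. The part of these in the differences was not tested, and both pNdrg4 cells of P8 were among the cells with rod genes, so that no value without them could be had. The number of higher genes was 3 without P8 B4 and 2 without any 1 of P5 D5, P5 E4, P8 A2 and P8 B3, and the number of lower genes was 4 without P8 A2 and 1 without P5 D6.

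Neo1 was higher at P8 by 2.37 on average, by 4.33 in pSynapsin cells and by 0.42 in pNdrg4 cells. In pSynapsin cells the P8 signals (8110 and 10241) lay above all 4 at P5 (36.6, 130, 5309 and 120), as was so for 2.57% of all genes. In pNdrg4 cells they were 12025 and 79.1 against 38.2, 2.0, 1607, 4157 and 7788, and the difference of group medians was -0.05, so the direction there rests on the mean. The average was 0.90 without P8 A1 and 3.85 without P8 A2, and 0.00 with the median over the probe sets of the gene.

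Robo3 differed by -3.03 on average, by -4.10 in pNdrg4 and by -1.96 in pSynapsin cells, and all 4 P8 cells were at the floor, with signals of 45.8 to 118. Cells without Robo3 were also present in both P5 groups, 2 of 5 and 2 of 4. Nrp1 differed by -2.52 on average, by -3.85 in pSynapsin cells, where both P8 cells (7.5 and 9.5) lay below all 4 P5 cells (beside 1.32% of all genes), and by -1.19 in pNdrg4 cells. In these pNdrg4 cells P5 D6 alone had Nrp1 above the floor. The average was -1.92 without P5 D6, and -0.77 with the median over the probe sets.

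**Figure D5:**
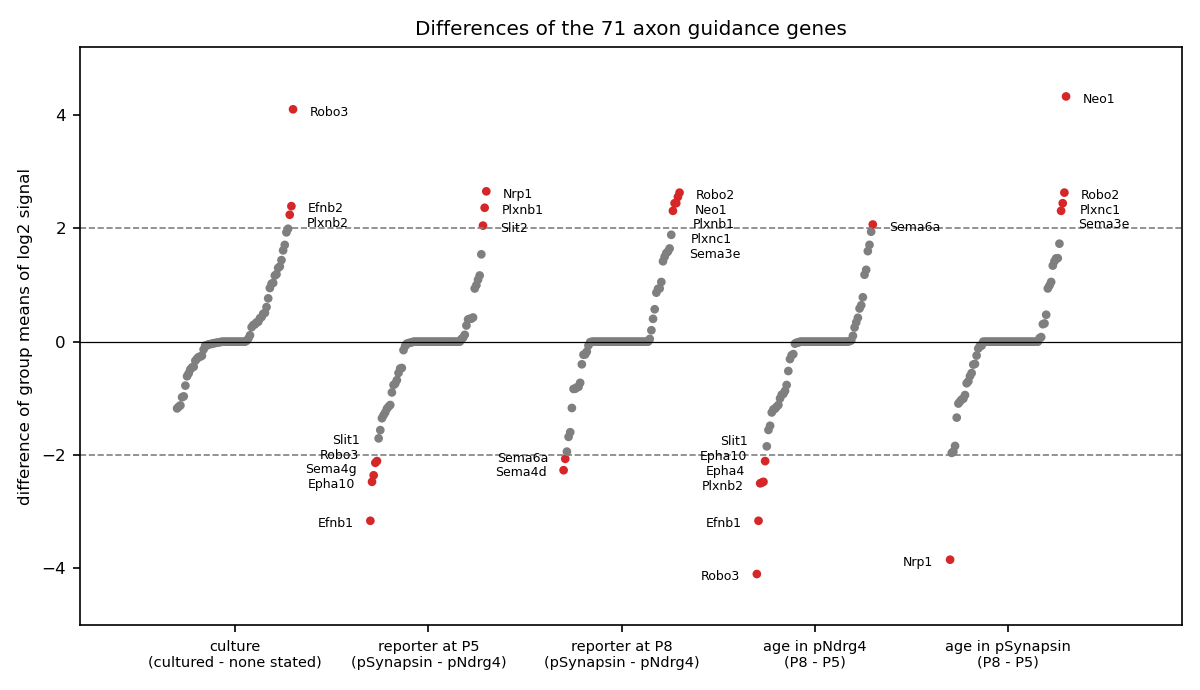
Differences of group means of log2 signals (y axis) for the 71 guidance genes in 5 comparisons, sorted by size within each, with those of at least 2 log2 in red and dashed lines at 2 and -2. Most genes lie at or near 0, Robo3 lies at 4.10 for culture and at -4.10 for age in pNdrg4 cells, and the culture, P5 reporter and pNdrg4 age comparisons share 5 cells.

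Within single reporters more genes passed 2 log2. In pNdrg4 cells 6 genes were lower at P8 (8.45%, beside 2.74% of all genes): Robo3, Efnb1 (-3.16), Plxnb2 (-2.50), Epha4 (-2.49), Epha10 (-2.47) and Slit1 (-2.11). All except Plxnb2 were detected in 0 of the 2 P8 cells, and no guidance gene was without overlap in either direction (beside 2.34% higher and 0.907% lower of all genes). Sema6a was the 1 gene higher (2.07, through P8 A2; 1.41%, beside 5.04%). In pSynapsin cells 4 genes were higher by at least 2 log2 (5.63%, beside 4.71%), Neo1, Robo2 (2.63), Plxnc1 (2.44) and Sema3e (2.31), the last 3 through 1 cell each, and Nrp1 was the 1 gene lower (1.41%, beside 3.09%). Efnb3 was higher by 1.73, with both P8 cells above all 4 P5 cells, as was so for 2.57% of all genes. Sema6c, detected in no cell, lay lower without overlap, at 162 and 109 against 278, 409, 252 and 259 (beside 1.32%). No guidance gene passed 2 log2 in the same direction within both reporters, while 0.61% of all genes were higher and 0.231% lower within both.

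Short of 2 log2 on average, Plxnb2 (-1.75) and Efnb2 (-1.70) were lower at P8 within both reporters and Dcc (1.59) higher within both. Of the 58 listed effectors and partners, 3 (5.17%, beside 1.8% of all genes) were higher by at least 2 log2 at P8 on average, Rgmb (2.69), the Neo1 ligand, Mical3 (2.68) and Srgap2 (2.01). Nrcam (-2.36) was the 1 gene lower (1.72%, beside 0.786%).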

How the data were processed

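Single amacrine cells were picked by GFP, their RNA was reverse transcribed and amplified by 35 cycles of PCR, and the biotin-labelled cDNA was hybridised to 1 array per cell, per the labels' protocols. The amplified cDNA is double-stranded, so RNA of a gene and of its antisense partner cannot be told apart. The deposited values are linear intensity values, 1 per probe set and array, which the authors made with MAS5 per the submitters' processing notes (version not given in the sources used here). Each array's mean, trimmed by 2% at each end, is 500 in the deposited values, which were not scaled again. Of 45101 probe sets, 34945 named exactly 1 gene and gave 18193 genes; probe set names came from the platform annotation. Where a gene had several probe sets, that of highest mean log2 signal (floor 200) stood for it, and it was detected at 1000. Differences are those of group means of log2 signals. With 1 sample per group no tests were made, and the exact Clopper-Pearson intervals cover counting error only.

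The genes, lists and comparisons were chosen with earlier results of these data known. Genes detected in at least 6 cells are given by cell, those in 1 to 5 cells with their cells and signals, and those in none by name; in each comparison all genes past 2 log2 are named, or the 3 farthest each way, and the 3 closest genes by phi for genes in 6 to 20 cells. Kdr and Xist, and Neo1, Sema4g and others short of 2 log2, were picked for mention in view of their values. The culture comparison was also tested on simulated data with known shifts, and the other steps were not. Alternatives covered the detection level, the floor, the choice of probe set, normalization, medians, a fold of 1 log2, a filter on detection and leaving out cells. The work used matplotlib 3.10.9, scipy 1.17.1, pandas 2.3.3 and numpy 2.4.6 under Python 3.11.15.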

Additional observations from a re-analysis of the deposited data

Results flagged for a closer look

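Within groups of 4 to 10 cells, 12 of 57 sets of values (the 18 guidance genes detected in at least 6 cells, and the number of guidance genes per cell, in each of 3 groups) had a cell whose distance to its nearest neighbour was large for the group's range by Dixon's 95% limit. Chance flags about 1 in 20 groups of normally spread values, and values held at the floor in most cells are not so spread. No explanation was tested.

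Among P5 cells with no culture stated, the cell that stood apart was A2 for Slit2 (log2 signal 12.11), and A5 for Nrp1 (12.48) and Sema4d (11.55). Among cultured P5 pNdrg4 cells it was D5 for the netrin receptor gene Dcc (12.1), C6 for Slit2 (11.43), C1 for Epha8 (12.79) and D6 for Nrp1 (13.61), each detected in that 1 cell of the 5. Among P5 pSynapsin cells it was E1 for Epha4 (12.4), E3 for Neo1 (12.37) and E2 for Epha8 (12.9) on the high side, and E1 for Efnb3 (7.64, the floor) and E3 for Plxna3 (7.64) on the low side.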

How the results depend on the processing

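The differences of at least 2 log2 in the culture, P5 reporter and averaged age comparisons kept their direction under the alternatives run, except that the median probe set gave 0.00 for Neo1 with age and leaving out cells with rod genes gave 0.00 for Plxnb1 with the reporter. Other named differences were not rerun, apart from their group medians. These turned Neo1 with age in pNdrg4 cells and gave 0.00 for Plxnb1 and Plxnc1 with culture. For Nrp1 with age in pNdrg4 cells both medians lay at the floor. The number of genes detected (33 to 49) and the median per cell (6 to 12) kept within 1.5 times. No paired analysis was possible because no test was made and no cell of 1 group is tied to a cell of another. Counts of genes past 2 log2, given as higher and lower, moved with the floor, the fold, group medians and the probe set. A floor of 50 gave 8 and 2 for culture, 9 lower for the reporter, and 3 and 5 for age. A floor of 500 gave 1 higher for culture, 0 and 2 for the reporter, and 0 and 1 for age. At 1 log2 the counts were 14 and 3, 6 and 13, and 6 and 8. Group medians gave 11 higher for culture, 8 lower for the reporter, and 2 and 4 for age. The highest probe set per cell gave 1 higher for the reporter and 0 and 1 for age, with Efnb2 at 1.99 for culture, Nrp1 at 1.98 and Slit2 at 1.62 for the reporter, and Neo1 at 1.53 and Nrp1 at -1.62 for age. The median probe set gave 1 and 3 for the reporter and 0 and 1 for age. Ligand and receptor counts moved too. Detection at 500 gave 5 cells for ephrin-B with EphB and 4 for class 3 semaphorins with neuropilins. Detection at 2000 gave 3 for Slit with Robo, 4 for ephrin-A with EphA and 0 for class 3 semaphorins with neuropilins. The median probe set gave 4 and 0 for the last 2 families, and quantile normalization gave 2 for class 3 semaphorins with neuropilins. The cause was not tested beyond the settings' own construction. Leaving out 1 cell at a time gave 2 to 6 higher and 0 to 1 lower for culture, 1 to 4 and 3 to 6 for the reporter, and 1 to 3 and 1 to 4 for age. C6 and A7 moved the culture count, C1, D5 and E2 the reporter counts, and P5 D5, P5 D6, P5 E4, P8 A2, P8 B3 and P8 B4 the age counts. With group medians the Plxnb2 difference for culture was 5.01. Leaving out the 7 cells with at least 4 rod genes was chosen after seeing the data and gave 43 genes detected and a median of 10 per cell. The arrays keep no counts, so a gene below 1000 may be present in a cell and was not detectable at this level.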
